A study of Homo sapiens with 16 samples.

Results

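The 9 genes IRF1, IRF2, IRF3, IRF5, IRF7, IRF9, STAT2, IFNAR1 and IFNAR2 encode interferon regulatory factors, a STAT protein and both chains of the type I interferon receptor. They were chosen by symbol: each is a row of the deposited table whose Ensembl identifier carries that symbol in GENCODE release 44, and all 9 of 9 were found among 60676 listed genes. In hg38 they lie apart, on chromosomes 5 (IRF1), 4 (IRF2), 19 (IRF3), 7 (IRF5), 11 (IRF7), 14 (IRF9) and 12 (STAT2), except that the receptor genes lie close together on chromosome 21. The cells were THP-1, a human monocytic leukemia line that turns macrophage-like when given the phorbol ester PMA. The lines had been transduced with a pLKO.1-TRC lentiviral vector carrying a non-targeting hairpin (shNC) or a hairpin against UHRF1 (shUHRF1), DNMT1 (shDNMT1) or DNMT3B (shDNMT3B), all of them selected with puromycin. Each line then received DMSO alone or PMA at 100 ng/ml over 48 h, and 2 RNA-seq libraries were made per line and treatment, 16 in all. With 1 line to a target gene, a line and its hairpin cannot be told apart, and untransduced THP-1 cells were not used here.

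Type I interferons are read by a receptor made of IFNAR1 and IFNAR2, which are bound inside the cell by the kinases TYK2 and JAK1. These phosphorylate STAT2, which joins IRF9 in the complex ISGF3, and ISGF3 switches on genes that carry an interferon-stimulated response element in their promoter. IRF3 and IRF7 act upstream, where they turn on interferon genes after viral nucleic acid is sensed, and IRF5 serves a similar role and drives inflammatory cytokines in macrophages. IRF1 activates interferon-gamma targets, and IRF2 competes with IRF1 for the same DNA element.

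Library totals ran from 13883556 to 23151864 counts, with all replicate 1 libraries at or above 20384066 and all replicate 2 libraries at or below 15679327, and mitochondrially encoded genes held 7.71% to 29.0% of the former and 3.92% to 14.5% of the latter. For 12 of 16 samples the description named another condition than the title, and samples were read by the description, which is also the column name. MMP9 and RGS1, macrophage markers, stood at 4787 or more and 528 or more CPM (counts divided by the TMM-scaled library total and multiplied by 1e+06) in all 8 libraries named PMA, and at 11.4 or less and 0.425 or less in all 8 named DMSO, so the treatment in the column names and these markers went together. The hairpins' targets gave no such check of the lines: against shNC in DMSO, UHRF1 differed by -0.36 on the log2 scale in the line labelled shUHRF1 (adjusted p = 0.605), DNMT1 by -0.25 in that labelled shDNMT1 (adjusted p = 0.787) and DNMT3B by -0.48 in that labelled shDNMT3B (adjusted p = 0.212). In PMA the differences of these genes in their own lines were 0.87, 0.45 and 1.06, all in the direction of more RNA, with adjusted p = 0.129, 0.376 and 0.00688. The study checked the knockdown of the target proteins by western blot, whereas only RNA was compared here. Every statement on a line below is on the line so labelled. Replicate 1 of shNC in DMSO held 232 CPM of HBB and 184 CPM of HBA2. These hemoglobin genes were at 0 in its partner and at or below 1.30 CPM in every other library. For comparisons that use this library, some counts of genes called, and the values of IRF7 against shNC in DMSO, are also given without it. Some other values are given without it where so stated, and the rest are given only with it. The T-cell gene CD3E stood at 0.105 CPM in replicate 1 of shNC in DMSO and at 0 in every other library. The fibroblast gene COL1A1 reached 10.8 CPM at most. These are single genes, and sums over the lists they come from are given with the PMA responses.

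Promoters of 5 of the 9 genes (IRF1, IRF5, IRF9, STAT2 and IFNAR1) were in the RefSeq table used (build GRCh38.p14), each covering 250 bases before to 50 after a transcription start, and IRF2, IRF3, IRF7 and IFNAR2 had no entry. They were searched for the core of the interferon-stimulated response element (GAAANNGAAA, both strands) and for the element bound by STAT dimers (TTCNNNGAA, which reads the same on either strand). The STAT element was found before the start of IRF1 and IRF9, which are shown here with 20 bases on each side, the motif in capitals. It begins 124 bases before the start of IRF1 (chr5:132490869-132490917, minus strand) and 63 bases before that of IRF9 (chr14:24161182-24161230, plus strand).
IRF1: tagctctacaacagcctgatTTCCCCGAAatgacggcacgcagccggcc
IRF9: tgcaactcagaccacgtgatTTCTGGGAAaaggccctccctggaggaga
No promoter of the 5 genes held the response element core. Of 27305 genes with a promoter in the table, 4.38% held the core and 9.38% the STAT element. Among 36 genes listed as ISGF3 targets, 31 had a promoter there, and 23 of these 31 held the core. The promoters of ISG15 (chr1:1013364-1013419, plus strand) and IFIT1 (chr10:89392487-89392549, plus strand), a ubiquitin-like modifier and an inhibitor of viral RNA translation, are shown for contrast, with each core in capitals. The cores overlap in ISG15 and lie on the opposite strand in IFIT1.
ISG15: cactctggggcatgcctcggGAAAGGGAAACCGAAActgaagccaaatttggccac
IFIT1: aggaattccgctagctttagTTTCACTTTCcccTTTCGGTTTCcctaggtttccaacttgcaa
A match describes letters in a window and is not a measured binding site.

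All 9 genes were well covered, with between 67 counts (IRF7 in replicate 1 of shDNMT1 in DMSO) and 4803 counts (IFNAR1 in replicate 1 of shUHRF1 in PMA) per library. To set genes beside each other, CPM was divided by the length of the GENCODE canonical transcript in kb. In shNC in DMSO, IRF3 was the most abundant at 49.4 ± 4.72 CPM per kb (mean ± SD, n = 2, as in all values below), followed by IRF7 at 24.5 ± 0.540, IRF5 at 23 ± 3.99 and IRF9 at 22.7 ± 1.03. STAT2 at 11.1 ± 3.65, both receptor chains and IRF1 lay between these and IRF2, the lowest at 8.52 ± 0.186 CPM per kb. In DMSO, IRF3 ranked at the top of the 9 in each of the 4 lines, also when CPM was divided by the length of all annotated exons. IRF7 ranked at the bottom in shDNMT1, at 2.00 ± 0.153 CPM per kb, and in shDNMT3B, at 3.97 ± 0.447. By the length of all annotated exons it was again the lowest in shDNMT1 but stood at rank 6 of 9 in shDNMT3B. After PMA it stood near the top in every line, at 71.1 ± 2.37 CPM per kb in shNC, 53.2 ± 2.47 in shUHRF1, 62.0 ± 7.68 in shDNMT1 and 76.2 ± 6.40 in shDNMT3B. IRF7 also spanned the widest range of the 9 over the 8 groups: its highest group mean was 38.1 times its lowest, against 10.4 times for STAT2, 9.27 for IRF2, 7.39 for IRF9 and 1.91 for IRF3. When the 8 groups were put in order of level, neighbouring groups overlapped in 1 of 7 steps for IRF7, 2 for IRF1 and IRF9, 3 for IRF2 and IRF5, 4 for IFNAR1 and IFNAR2 and 5 for IRF3 and STAT2.

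**Figure D1:**
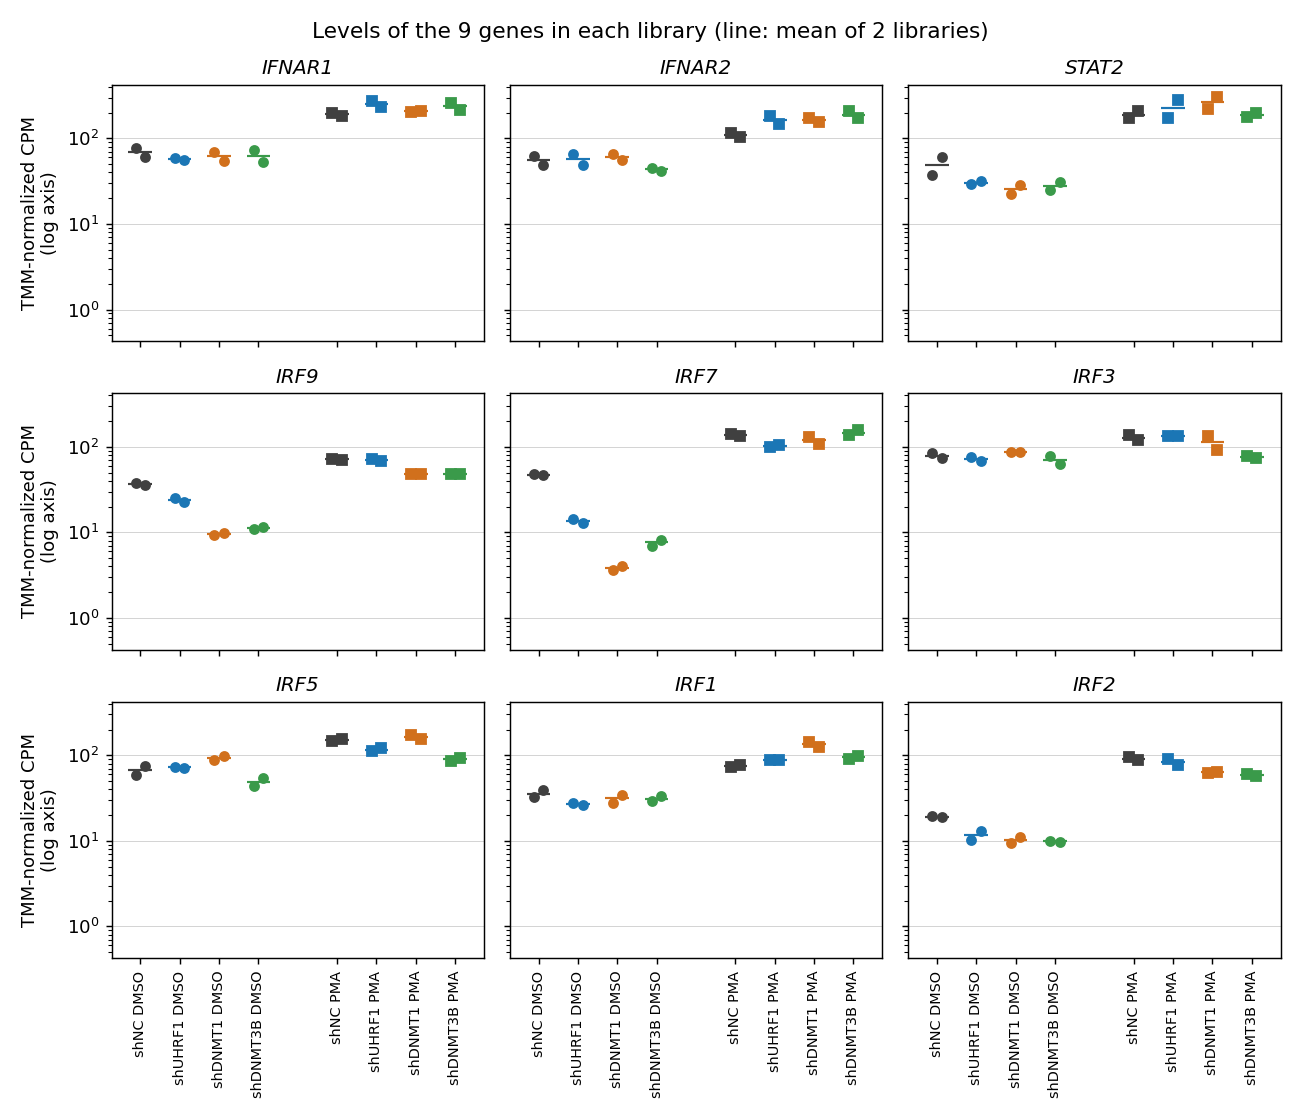
Level of each of the 9 genes in every library, in CPM after TMM scaling (log axis), by line and treatment (circles DMSO, squares PMA, left and right points replicates 1 and 2, line the mean). In 7 panels every PMA library lies above every DMSO library; IRF3 and IRF5 are the exceptions, and IRF7 shows the widest spread among the DMSO groups.

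Whether PMA changed these genes was asked in each line, against the same line in DMSO. All 9 genes rose in shNC and in shUHRF1, and 8 of 9 rose in shDNMT1 and in shDNMT3B, by edgeR's quasi-likelihood test with Benjamini-Hochberg adjustment over 16503 genes and an adjusted p under 0.05. None fell, and none passed an unadjusted p under 0.05 in that direction or was called lower by DESeq2. Over all genes tested, 28.4% rose and 26.0% fell in shNC, 29.4% and 25.5% in shUHRF1, 28.6% and 24.1% in shDNMT1, and 25.2% and 19.7% in shDNMT3B. The median log2 fold change of the 9 genes was 1.19, 1.71, 2.1 and 2.09 in these lines in turn, beside medians over all tested genes of -0.00494, -0.00517, 0.00552 and 0.0202. For 7 of the 9, every PMA library lay above every DMSO library of any line, while IRF3 and IRF5 overlapped. The share of all genes separated in this way was not counted. Macrophage markers rose with PMA as well, 13 of 13 tested in each line, from a summed level of 202 to 359 CPM in the DMSO libraries to between 10669 and 33512 CPM in the PMA libraries. Monocytic progenitor markers summed to 4265 to 10072 CPM in DMSO and 1007 to 2558 in PMA. T and NK cell genes summed to 8.70 to 24.9 CPM in DMSO and 29.8 to 66.1 in PMA, with 2 of the 3 tested higher in PMA in each line, B lineage and plasmacytoid dendritic cell genes to 11.2 to 25.6 and 33.3 to 74.9, and fibroblast and epithelial genes to 0.676 to 4.17 and 3.63 to 11.6. Mitochondrially encoded genes held 9.86% to 29.0% of counts in DMSO and 3.92% to 19.5% in PMA, less in PMA in 8 of 8 pairs of libraries with the same line and replicate number. The part of these shifts in the rise of the 9 genes was not tested. In bulk RNA, fewer cells that express a gene and less of its RNA per cell cannot be told apart.

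Both receptor chains rose in all 4 lines. IFNAR1, the chain that carries TYK2, stood at 78.1 and 60.5 CPM in shNC in DMSO (replicate 1 before replicate 2, as throughout) and at 200 and 181 in PMA. Its log2 fold change was 1.46 (standard error, SE, 0.20, adjusted p = 5.55e-05) in shNC, and 2.12, 1.73 and 1.92 in shUHRF1, shDNMT1 and shDNMT3B. IFNAR2, the chain that carries JAK1 and binds interferon most tightly, went from 61.9 and 48.8 CPM to 115 and 103 in shNC. The shNC and shDNMT3B lines lay at the ends of its response: the log2 fold change was 0.98 (SE 0.19) in shNC and 2.13 (SE 0.20) in shDNMT3B, where IFNAR2 went from 45.6 and 41.4 to 207 and 173 CPM. IFNAR2 and IFNAR1 lie close together on chromosome 21 (hg38, plus strand, 33205282 to 33265675 and 33324387 to 33359864), with IL10RB, a chain of the interleukin-10 and interferon-lambda receptors, between them and IFNGR2, a chain of the interferon-gamma receptor, beyond. Within these 274.1 kb all 4 receptor genes rose with PMA in each line, and IFNGR2 had the largest change of the 4 in each, from 3.11 to 3.92 on the log2 scale. Of the exon bases of IFNAR2, 14.7% are shared with the readthrough gene IFNAR2-IL10RB on the same strand, so reads there match both. How the counting treated such reads is not given in the sources used here.

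STAT2 and IRF9, the subunits of ISGF3 among the 9, rose in all 4 lines. STAT2 went from 37.4 and 60.1 CPM in shNC in DMSO to 172 and 207 in PMA, and from 22.1 and 28.9 to 220 and 308 in shDNMT1. The groups were far apart, although replicate 2 was higher than replicate 1 in each of the 8 groups. Its log2 fold change was 1.96 (SE 0.28, adjusted p = 8.03e-05) in shNC, 2.91 in shUHRF1, 3.37 in shDNMT1 and 2.76 in shDNMT3B. IRF9, the DNA-binding subunit, whose promoter stretch is shown above, went from 38.1 and 35.7 CPM to 71.7 and 71.1 in shNC, which is 0.95 on the log2 scale (SE 0.12, adjusted p = 2.78e-05). In shUHRF1 the change of IRF9 was 1.54, in shDNMT1 2.32 and in shDNMT3B 2.09. The replicates of IRF9 differed little, which shows in the small SE. On the same strand, 23.9% of the exon bases of IRF9 are also annotated to another gene, ENSG00000259529, so reads there match both as well.

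IRF7, the factor that amplifies interferon-alpha production, rose more than the other 8 genes in shDNMT1 and shDNMT3B. In shNC it went from 47.8 and 46.3 CPM in DMSO to 140 and 133 in PMA, 2.90-fold (log2 1.54, SE 0.15, adjusted p = 1.84e-06), and STAT2 and IRF2 rose more there. In shUHRF1 it went from 14.5 and 12.9 to 98.9 and 106 CPM, 7.46-fold, close to STAT2. In shDNMT1 it went from 3.64 and 4.05 to 130 and 109 CPM, 31.0-fold (log2 4.95, SE 0.17, adjusted p = 4.72e-10). In shDNMT3B it rose 19.2-fold, from 7.03 and 8.25 CPM to 138 and 155. The lines thus lay far apart in DMSO and close together in PMA, where the highest line mean was 1.43 times the lowest, against 12.2 times in DMSO.

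IRF3, which is held in the cytoplasm until phosphorylated, moved least of the 9 in shNC, shDNMT1 and shDNMT3B. It went from 84.2 and 73.5 CPM to 136 and 120 in shNC (log2 0.70, SE 0.18, adjusted p = 0.00525) and rose by 0.89 in shUHRF1. In shDNMT1 it stood at 87.7 and 86.1 CPM in DMSO and 134 and 92.6 in PMA (log2 0.38, SE 0.18, adjusted p = 0.0896), and without replicate 2 in PMA, the lower library, the change was 0.63 (adjusted p = 0.0146). With the replicate number as a block, IRF3 was called there too (log2 0.37, adjusted p = 0.0117), which made 9 of 9 against 65.4% of all genes called either way. In shDNMT3B it stood at 77.3 and 63.2 CPM in DMSO and 78.9 and 73.3 in PMA, so the groups overlapped (log2 0.12, adjusted p = 0.631). IRF5 rose by 1.19, 0.69, 0.83 and 0.88 in shNC, shUHRF1, shDNMT1 and shDNMT3B. Its level in shDNMT3B in PMA, 85.4 and 93.2 CPM, overlapped that of shDNMT1 in DMSO, 88.0 and 97.6. Under upper-quartile scaling IRF3 in shNC (adjusted p = 0.0668) and IRF5 in shUHRF1 (adjusted p = 0.0513) were not called. BCL2L12, on the opposite strand, shares 19.3% of the exon bases of IRF3.

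IRF1 and IRF2, the activator and repressor of the same element, rose in all 4 lines, and IRF2 by more in each. IRF1 went from 32.2 and 39.2 CPM to 73.7 and 77.3 in shNC (log2 1.08, SE 0.16) and from 28.0 and 34.6 to 144 and 125 in shDNMT1 (log2 2.1, SE 0.16). IRF2 went from 19.5 and 18.9 CPM to 95.7 and 87.0 in shNC (log2 2.25, SE 0.16, adjusted p = 1.04e-07), and rose by 2.82, 2.62 and 2.57 in shUHRF1, shDNMT1 and shDNMT3B. For both genes the treatments were separated by a clear gap, from a highest DMSO library of 39.2 CPM to a lowest PMA library of 73.7 for IRF1 and from 19.5 to 57.1 for IRF2. Antisense genes share 22.9% of the exon bases of IRF1. Whether the counting used strand is not given in the sources used here.

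**Figure D2:**
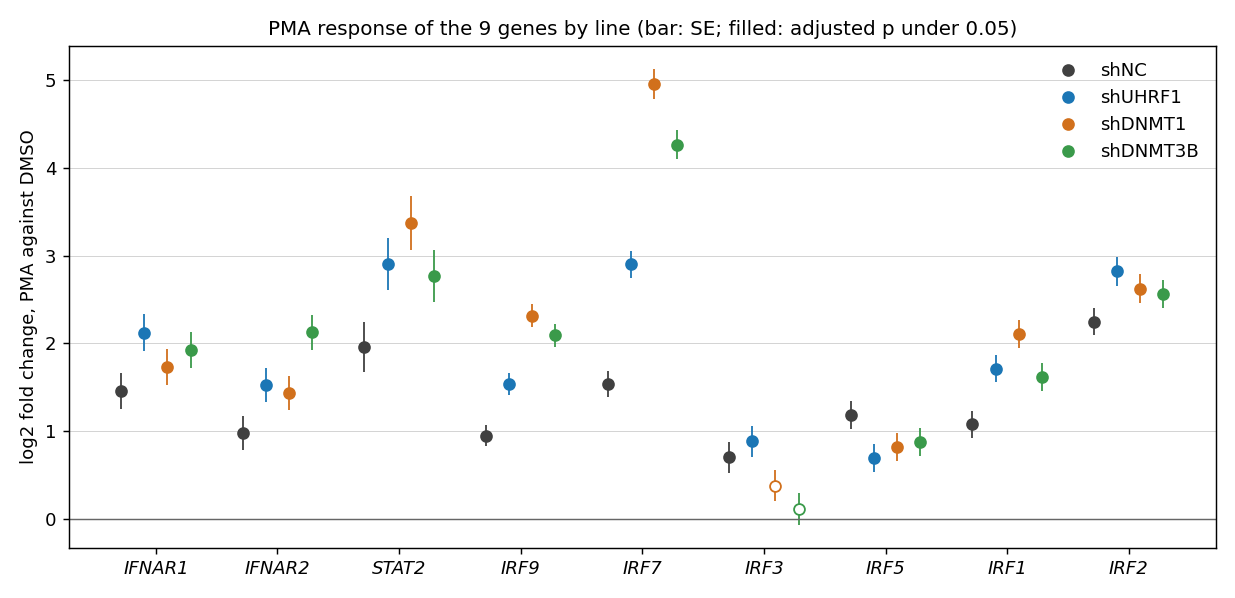
Log2 fold change of each of the 9 genes in PMA against DMSO, by line, with the SE as a bar and filled points for an adjusted p under 0.05. The 4 lines lie close for IRF2 and apart for IRF7, from 1.54 in shNC to 4.95 in shDNMT1, and IRF3 has the only open points.

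The lines were next compared with shNC without PMA. In DMSO the same 3 of 9 genes, IRF2, IRF7 and IRF9, were lower than in shNC in shUHRF1, in shDNMT1 and in shDNMT3B, and none was called higher. An unadjusted p under 0.05 in that direction was met by IRF5 in shDNMT1 alone, which DESeq2 also called. Of all genes tested, 1.15% fell in shUHRF1, 3.39% in shDNMT1 and 2.89% in shDNMT3B. These comparisons share both shNC libraries, so a shift in those libraries enters all of them. The median log2 fold change of the 9 genes was -0.40, -0.19 and -0.46 in the lines in turn, and over all genes -0.0381, -0.0440 and -0.0230.

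IRF7 changed most. Its 47.8 and 46.3 CPM in shNC compared with 14.5 and 12.9 in shUHRF1, 7.03 and 8.25 in shDNMT3B and 3.64 and 4.05 in shDNMT1. No library of any group reached into the range of the next. The level was 3.43-fold lower than in shNC in shUHRF1 (log2 -1.78, SE 0.15, adjusted p = 6.4e-05), 6.16-fold lower in shDNMT3B (log2 -2.62, SE 0.16, adjusted p = 9.71e-07) and 12.2-fold lower in shDNMT1 (log2 -3.61, SE 0.17, adjusted p = 9.68e-08). Without the shNC library that held hemoglobin counts, the log2 values were -1.76, -2.60 and -3.59 in shUHRF1, shDNMT3B and shDNMT1. Without it the response of STAT2 to PMA in shNC was 1.66 on the log2 scale. In a fit of only the 4 libraries compared, the fall of IRF7 in shUHRF1 missed the threshold (adjusted p = 0.0511).

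IRF9 followed the same order with smaller steps. It stood at 38.1 and 35.7 CPM in shNC, 25.1 and 23 in shUHRF1, 10.9 and 11.6 in shDNMT3B and 9.40 and 9.93 in shDNMT1, again with no overlap between groups. The log2 fold change was -1.93 (SE 0.13, adjusted p = 1.46e-06) in shDNMT1 and -1.71 (SE 0.13, adjusted p = 5.35e-06) in shDNMT3B. In shUHRF1 it was -0.62 (SE 0.12, adjusted p = 0.0253), and leaving out any of the 4 libraries compared raised the adjusted p: to 0.223 and 0.0991 without shNC replicate 1 and 2, and to 0.114 and 0.0952 without shUHRF1 replicate 1 and 2. IRF2 stood at 19.5 and 18.9 CPM in shNC against 10.3 and 13.2, 9.5 and 11 and 9.94 and 9.77 in shUHRF1, shDNMT1 and shDNMT3B. Both shNC libraries lay above all 6 others, which overlapped among themselves. Its log2 fold change was -0.71 (SE 0.16, adjusted p = 0.0453), -0.90 (SE 0.16, adjusted p = 0.00533) and -0.96 (SE 0.16, adjusted p = 0.00362). In shUHRF1 the call on IRF2 was lost without shNC replicate 1 (adjusted p = 0.263), shNC replicate 2 (0.157) or shUHRF1 replicate 1 (0.462), and in shDNMT1 without shDNMT1 replicate 1 (0.0942).

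STAT2 had 37.4 and 60.1 CPM in shNC, where the replicates lay far apart, against 29.6 and 31.4 in shUHRF1, 22.1 and 28.9 in shDNMT1 and 24.8 and 30.8 in shDNMT3B. The shNC libraries were the highest of the 8, but the log2 differences of -0.67, -0.93 and -0.81 did not pass the test (adjusted p = 0.304, 0.0983 and 0.138). With the replicate number as a block, which takes up the higher values of replicate 2, STAT2 was called lower in each line (log2 -0.64, -0.92 and -0.78, adjusted p = 0.00516, 1.06e-04 and 4.62e-04). The block brought the count of genes called either way to 4 of 9 in shUHRF1 against 11.5% of all genes, to 5 of 9 in shDNMT1 against 13.6%, where IRF5 was higher (log2 0.48, adjusted p = 0.0107), and to 6 of 9 in shDNMT3B against 18.7%, where IRF5 (log2 -0.45, adjusted p = 0.0129) and IFNAR2 (log2 -0.34, adjusted p = 0.0412) were lower. IRF1, IRF3 and IFNAR1 passed neither test in any line, with log2 differences from shNC between -0.40 and 0.14. The highest line mean in DMSO was 1.32 times the lowest for IRF1, 1.24 times for IRF3 and 1.2 times for IFNAR1.

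In PMA the lines were compared with shNC in PMA. None of the 9 genes was called in shUHRF1, where 2.04% of all genes were higher and 1.65% lower. At an unadjusted p under 0.05, 3 of the 9 passed there, and DESeq2 called 0. The share of all genes at these settings was not counted. With the block 4 of 9 were called against 15.2% of all genes. IRF5 (log2 -0.38, adjusted p = 0.0363) and IRF7 (log2 -0.42, adjusted p = 0.0202) were lower. IFNAR1 (log2 0.40, adjusted p = 0.0282) and IFNAR2 (log2 0.59, adjusted p = 7.31e-04) were higher. In shDNMT1, 1 of 9 was higher, against 8.50% of all genes, and 2 of 9 were lower, against 6.35%. In shDNMT3B, 1 of 9 was higher, against 11.3%, and 4 of 9 were lower, against 9.05%.

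The gene that was higher in shDNMT1 was IRF1, at 144 and 125 CPM against 73.7 and 77.3 in shNC (log2 0.83, SE 0.15, adjusted p = 0.00297). Both shDNMT1 libraries lay above those of all other groups. IRF9 was lower in shDNMT1 and shDNMT3B by much the same amount: its 71.7 and 71.1 CPM in shNC compared with 48.4 and 48 and 47.8 and 48.1, log2 differences of -0.57 (adjusted p = 0.00766) and -0.57 (adjusted p = 0.00587). IRF2 was lower in the same lines, at 62.6 and 64.0 CPM (log2 -0.53, adjusted p = 0.0326) and 59.7 and 57.1 CPM (log2 -0.65, adjusted p = 0.00989) against 95.7 and 87.0 in shNC. In shUHRF1, IRF9 stood at 71.3 and 68.8 CPM and IRF2 at 89.5 and 76.2, overlapping shNC. Genes called in shDNMT1 alone or in shDNMT3B alone were not tested for a difference between these lines.

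In shDNMT3B, IRF3 and IRF5 were lower as well. IRF3 stood at 78.9 and 73.3 CPM against 136 and 120 in shNC (log2 -0.75, SE 0.18, adjusted p = 0.0114), and IRF5 at 85.4 and 93.2 against 147 and 157 (log2 -0.77, SE 0.16, adjusted p = 0.00523). IFNAR2 was higher, at 207 and 173 CPM against 115 and 103 (log2 0.80, SE 0.19, adjusted p = 0.0114). All IFNAR2 libraries of the 3 lines labelled as knockdowns lay above both of shNC in PMA, though the differences of 0.60 in shUHRF1 and 0.61 in shDNMT1 missed the threshold (adjusted p = 0.117 and 0.0513). With the block IFNAR2 was called in shDNMT1 (log2 0.61, adjusted p = 1.98e-04) and STAT2 too (log2 0.46, adjusted p = 0.0111), which made 5 of 9 against 31.4% of all genes, and in shDNMT3B IRF1 (log2 0.33, adjusted p = 0.0369) and IFNAR1 (log2 0.31, adjusted p = 0.0495) were added, which made 7 of 9 against 39.9%. IRF7, the gene that differed most in DMSO, did not pass the test without the block in PMA in any line, with log2 differences of -0.42, -0.20 and 0.10 (adjusted p = 0.144, 0.421 and 0.660), and with the block it was called lower in shUHRF1 alone, as given above.

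These PMA calls rested on few libraries in the main test, which does not use the pairing of replicate numbers. Leaving out libraries was not done with the block. With the block and all libraries, adjusted p in edgeR's quasi-likelihood test ran from 5.37e-06 (IFNAR2) to 3.04e-04 (IRF2) for the 5 genes in shDNMT3B. For the 3 genes in shDNMT1 it ran from 1.42e-05 (IRF1) to 0.00242 (IRF2). In shDNMT3B, leaving out replicate 1 of that line lost all 5 calls, with adjusted p of 0.0528 for IRF9, 0.0588 for IRF2, 0.0593 for IRF3, 0.0611 for IRF5 and 0.101 for IFNAR2. IRF2 and IRF3 also lost the call without replicate 2 of shDNMT3B (adjusted p = 0.0807 and 0.0885) or without shNC replicate 1 (0.0810 and 0.0895), and IFNAR2 without shNC replicate 2 (0.0939). In shDNMT1, IRF2 lost it without any of the 4 libraries (adjusted p = 0.0876 to 0.198) and IRF9 without shNC replicate 1 (0.0573) or shDNMT1 replicate 2 (0.0502), whereas IRF1 kept it without each of them. The log2 differences kept their direction throughout.

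**Figure D3:**
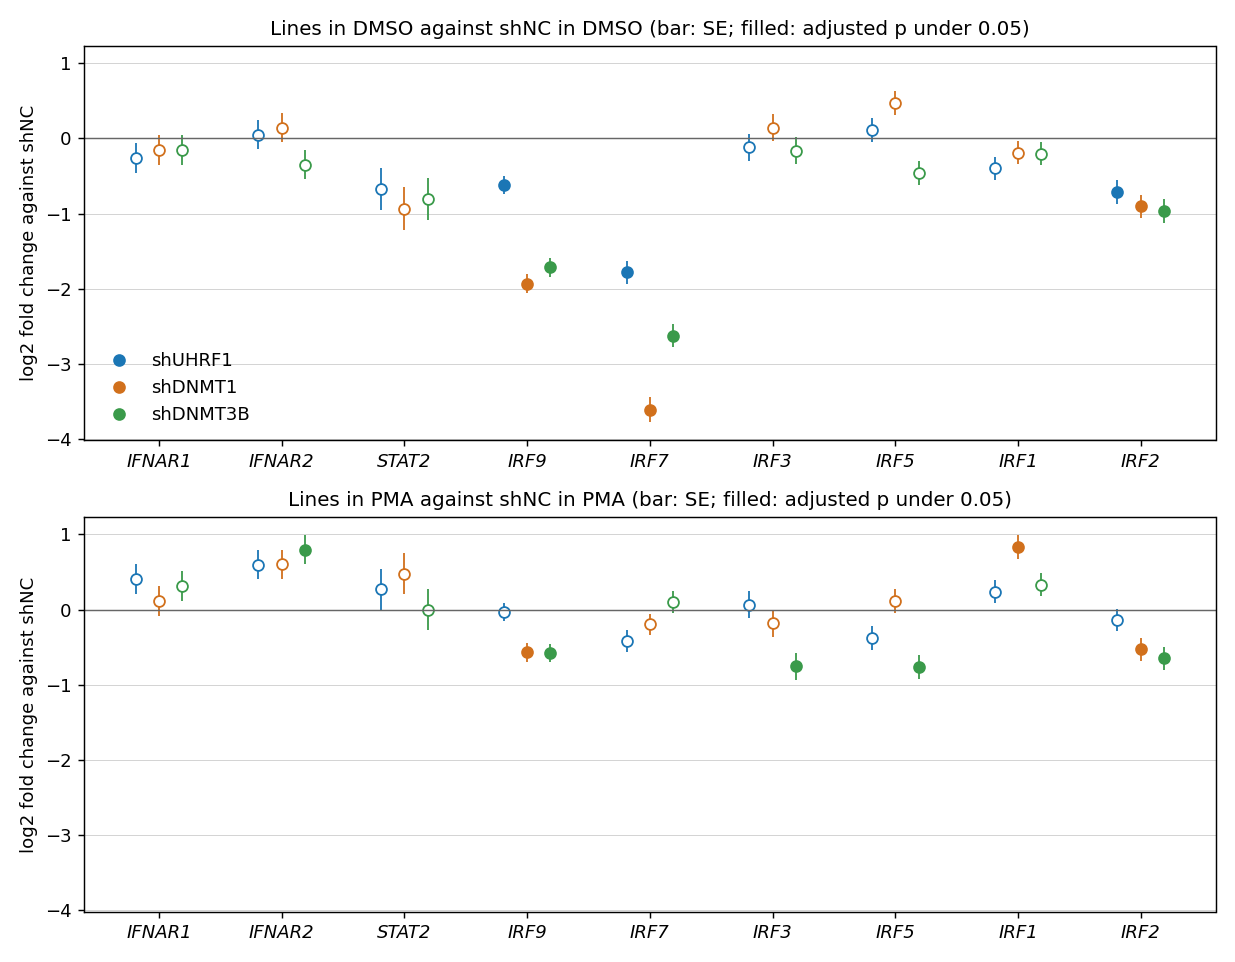
Log2 fold change of each of the 9 genes in the lines labelled shUHRF1, shDNMT1 and shDNMT3B against shNC, in DMSO (top) and in PMA (bottom), with the SE as a bar and filled points for an adjusted p under 0.05. In DMSO, IRF7 lies below -1 in all 3 lines and IRF9 in shDNMT1 and shDNMT3B, and no gene is beyond 1 in either direction in PMA.

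Whether the response to PMA itself differed between a line and shNC was tested as a difference of differences. IRF7 rose more than in shNC in each line, by 1.36 (SE 0.21, adjusted p = 0.0110) on the log2 scale in shUHRF1, 3.41 (SE 0.22, adjusted p = 2.13e-06) in shDNMT1 and 2.72 (SE 0.21, adjusted p = 1.18e-05) in shDNMT3B. It was the 1 gene of 9 called in shUHRF1, against 0.739% of all genes with a larger response. In shDNMT1, 3 of 9 were called, against 5.64%: IRF7, IRF9 (1.36, SE 0.18, adjusted p = 4.65e-04) and IRF1 (1.02, SE 0.22, adjusted p = 0.0130). In shDNMT3B, 3 of 9 were called, against 5.08%: IRF7, IRF9 (1.14, SE 0.17, adjusted p = 0.00162) and IFNAR2 (1.15, SE 0.27, adjusted p = 0.0225). The larger response of IRF7 went with a lower level in DMSO and a level in PMA that did not pass the test against shNC (with the block it was lower in shUHRF1), whereas that of IRF1 in shDNMT1 went with a higher level in PMA. By edgeR's quasi-likelihood test or DESeq2 no response of the 9 was called smaller than in shNC (1, 0 and 1 of 9 at an unadjusted p under 0.05), and the 3 tests share the shNC libraries.

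STAT2 lay at the threshold in shDNMT1, with a response larger by 1.41 (SE 0.39, adjusted p = 0.0506). With the block 6 of 9 were called in shUHRF1 against 8.48% of all genes, 5 of 9 in shDNMT1 against 18.6% and 6 of 9 in shDNMT3B against 19.5%, each time with IRF1, STAT2 and IFNAR2 among the larger responses (for STAT2, log2 0.88, 1.38 and 0.79, adjusted p = 0.00650, 1.9e-05 and 0.00620) and, in shUHRF1, with IRF9 and IFNAR1 as well, and, in shDNMT3B, with IRF3 smaller (-0.58, adjusted p = 0.0212). The call on IRF7 in shUHRF1 was lost without shNC replicate 1 (adjusted p = 0.0588) or 2 (0.0714) in PMA. The call on IRF1 in shDNMT1 was lost without shNC replicate 2 in DMSO (0.0690), shNC replicate 1 in PMA (0.0637), or shDNMT1 replicate 1 in DMSO (0.0723) or PMA (0.0515). That on IFNAR2 in shDNMT3B was kept only without replicate 2 of shDNMT3B in PMA or replicate 2 of shNC in DMSO, and the other 6 omissions gave adjusted p between 0.0533 (shDNMT3B replicate 1 in DMSO) and 0.102 (shDNMT3B replicate 1 in PMA). STAT2 passed in shDNMT1 without shNC replicate 1 in DMSO (0.0253) or shDNMT1 replicate 1 in PMA (0.0495). IRF7 in shDNMT1 and shDNMT3B, and IRF9 in both, were called without each library in turn.

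Of 10 other IRF, STAT and IRF2-binding genes analysed, 6, 5, 7 and 6 rose with PMA in shNC, shUHRF1, shDNMT1 and shDNMT3B and 2, 3, 3 and 2 fell. IRF8, a factor of monocyte and dendritic cell development, fell in all 4, from -2.99 in shNC to -1.35 in shDNMT1 on the log2 scale, and IRF2BP2, a corepressor of IRF2, fell by 0.63 in shNC. IRF4 stayed below 1 CPM in every group mean. Against shNC none of the 10 was called in DMSO in any line, and with the block 3 were lower in shDNMT1. In PMA, in shUHRF1, shDNMT1 and shDNMT3B in turn, 0, 1 and 2 were higher and 0, 1 and 2 lower, and with the block 0, 1 and 2 were higher and 1, 3 and 2 lower.

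Of 7 other receptor and kinase genes, 6 were tested, and IFNLR1, a chain of the interferon-lambda receptor, had 8 counts over all libraries. With PMA 5, 5, 6 and 6 of the 6 rose in shNC, shUHRF1, shDNMT1 and shDNMT3B and none fell. TYK2 rose by 0.81 to 1.09 on the log2 scale, and JAK1 by 1.5 (SE 0.14) in shNC but by 0.78 (SE 0.14) in shDNMT1 and 0.72 (SE 0.14) in shDNMT3B. JAK2, a kinase of the interferon-gamma receptor, stood at 44.4 and 71.3 CPM in shDNMT1 in PMA and at 23.9 and 29.5 in shNC (log2 1.12, adjusted p = 0.0241). In DMSO none of the 6 was called against shNC in any line by edgeR's quasi-likelihood test, and 1, 1 and 3 of them were lower in shUHRF1, shDNMT1 and shDNMT3B at an unadjusted p under 0.05. With the replicate block 2, 2 and 3 were called lower and none higher. Of 21 interferon genes only IFNB1 was tested. IFNL1 had 8 counts over all 16 libraries and the other 19, all 13 interferon-alpha genes listed and IFNG among them, had 0, which at these depths allows up to 0.130 to 0.216 CPM per library (3 counts, for counting error only). IFNB1 itself was low. It stood at 0.210 and 0.425 CPM in shNC in DMSO and at 0.526 and 0.217 in PMA, and was highest in shDNMT1 in PMA, at 1.72 and 1.51 CPM, above shNC (adjusted p = 0.0479). In shDNMT1 in DMSO it stood at 0 and 0.0520 CPM, below the level of 3 counts, and its response to PMA was called larger than in shNC there (adjusted p = 0.0211), with no fold given.

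Genes that ISGF3 is known to switch on were lower in the same DMSO comparisons. Of 36 such genes, 30, 36 and 36 fell against shNC in shUHRF1, shDNMT1 and shDNMT3B and none rose, with medians of -1.71, -3.28 and -3.29 on the log2 scale. OAS2, a sensor of double-stranded RNA, had log2 differences of -2.45, -4.92 and -4.51. In PMA 2, 1 and 12 of the 36 were lower than in shNC and 0, 2 and 2 higher, with medians of -0.12, 0.07 and -0.45. With PMA 32, 36, 36 and 36 rose in shNC, shUHRF1, shDNMT1 and shDNMT3B, and the response was larger than in shNC for 20, 35 and 32. With the replicate block 35, 36 and 36 were lower in DMSO, 6, 3 and 22 lower and 2, 6 and 3 higher in PMA, and 35, 36 and 35 had a larger response. Without the shNC library that held hemoglobin counts 26, 35 and 31 were lower in DMSO, 30 rose with PMA in shNC and 15, 34 and 27 had a larger response. This list is known from these data to move together, so its count is a description.

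**Figure D4:**
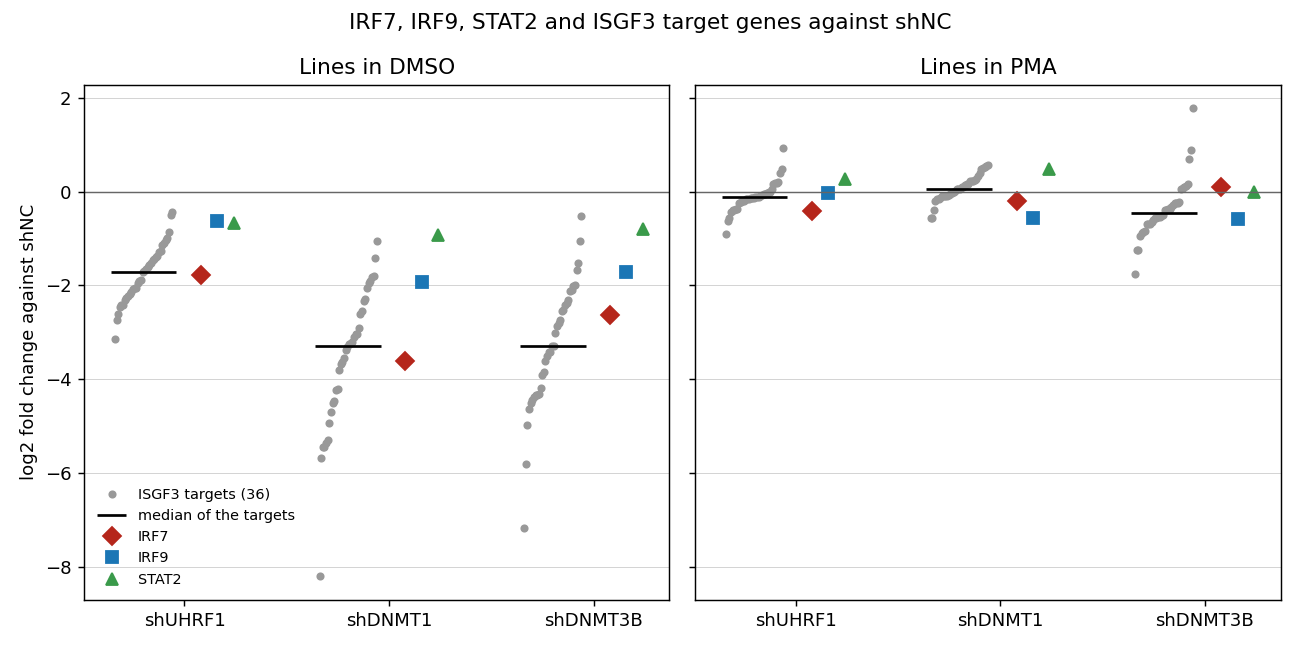
Log2 fold change against shNC, in DMSO (left) and in PMA (right), of 36 ISGF3 target genes (grey points, sorted, black line the median) and of IRF7, IRF9 and STAT2, by line. In DMSO the targets lie below 0 in all 3 lines, with IRF7 close to their median in shUHRF1 and STAT2 above it in all; in PMA the medians lie between -0.45 and 0.07.

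Genes around the 9 moved in part with them. Of 28 genes driven by IRF1 or interferon-gamma, 6, 13 and 9 were lower in DMSO in shUHRF1, shDNMT1 and shDNMT3B (medians -0.44, -0.98 and -0.66), although IRF1 itself was not called there. With the block these counts were 12, 17 and 15, and without the shNC library that held hemoglobin counts 3, 11 and 8. In PMA 1, 9 and 6 of 28 were higher and 1, 0 and 2 lower (medians 0.20, 0.59 and 0.10), and with the block 6, 15 and 13 were higher and 1, 2 and 7 lower. Among those higher in shDNMT1 were GBP4 (1.64), a guanylate-binding protein, and CIITA (3.94), the master regulator of MHC class II. Of 26 genes that sense nucleic acid or activate IRF3 and IRF7, 18, 18, 17 and 17 rose with PMA in shNC, shUHRF1, shDNMT1 and shDNMT3B and 3, 4 and 5 were lower than in shNC in DMSO in the last 3 lines (8, 9 and 6 with the block and 3, 4 and 4 without the shNC library with hemoglobin counts). In PMA 1, 3 and 3 were higher and 0, 1 and 5 lower, and with the block 3, 6 and 5 higher and 3, 4 and 12 lower. The RNA sensor RIGI was among those lower in DMSO in each line (log2 -1.59, -2.87 and -2.39), and STING1, which relays DNA sensing to IRF3, fell with PMA in shNC, by 3.48. Of 17 negative regulators of interferon signaling, 2, 2 and 4 were lower in DMSO (3, 4 and 6 with the block, 2, 2 and 3 without that library), with USP18, which blocks IFNAR2, lower in each line (log2 -2.29, -4.07 and -3.65). With PMA 9, 9, 8 and 8 of the 17 rose and 3, 2, 2 and 2 fell.

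For the 8 genes whose group means spanned over 1 on the log2 scale (all but IRF3), the genes with the most similar course over the 8 group means were found among 13627 others with a mean of at least 1 CPM, by the root mean square difference of centred log2 CPM. The closest to IRF7 were LY6E (0.26), UBE2L6 (0.28) and DHX58 (0.36), all known interferon-stimulated genes. The closest to STAT2 were AGRN (0.11), ZNFX1 (0.17) and MBP (0.18). The closest to IRF9 were TIGAR (0.31), ARPIN-AP3S2 (0.31) and CAPN2 (0.33). IRF1 lay nearest to LINC01504 (0.10), RPS6KA1 (0.11) and TRAFD1 (0.11), IRF2 to ZFHX3 (0.13), SP100 (0.14) and EVI2B (0.15), and IRF5 to ATRN (0.14), ITPRID2 (0.16) and PCCA (0.17). The receptor chains lay nearest to CYTH1 (0.11), CNP (0.12) and GSTO1 (0.13) for IFNAR1 and to ME3 (0.13), TBXA2R (0.16) and PRDM4 (0.17) for IFNAR2. The 8 points of such a comparison share the same libraries.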

How the data were processed

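RNA was prepared with a stranded mRNA kit and sequenced from both ends. Per the submitters' processing notes, STAR 2.4.0b, Cufflinks 2.1.1, HTSeq 0.6.1p1, edgeR and the hg38 build were used. The deposited table holds raw read counts per Ensembl gene that the authors made for 16 libraries, and the annotation release and the strand setting of counting are not given in the sources used here. GENCODE release 44 named 60357 of 60676 identifiers. All columns were used, and no row other than genes was present.

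Genes were filtered with filterByExpr (minimum count 10, minimum total 15), which left 16503, all 9 genes of interest among them. They were scaled by TMM and tested with edgeR's quasi-likelihood test (edgeR 4.0.16, limma 3.58.1, R 4.3.3) on 8 group means, with contrasts for PMA against DMSO in a line, a line against shNC in DMSO or PMA, and the difference of PMA responses. P-values were adjusted by Benjamini-Hochberg over all 16503 genes and called under 0.05. The procedure was tested on simulated data. The depth sets the precision of low values, and intervals cover counting error only. Nothing in the labels says that the libraries of a group came from separate cultures, so p-values measure the spread between these samples, which may be technical.

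Same-numbered libraries deviated together: the correlation of deviations from the group means was over 0.1 in 28 of 28 pairs of groups (0.220 to 0.508), and a replicate block lowered the common dispersion from 0.0439 to 0.0115 (residual degrees of freedom 8 and 7). Numbers were therefore taken to pair the samples. The main test on 8 group means, also used for the figures and the tally of calls, does not use this pairing. Blocked values are given as an alternative where they change a call on the 9 genes or move the count of a pathway list against shNC. Other alternatives were edgeR's relative log expression and upper-quartile factors, no filter, only the groups compared, DESeq2 1.42.0, an exact test after DEGES normalization as in the study's methods, and leaving out each library. These other alternatives were run without the block. Shares over all genes were counted for the main test and the block only, not at an unadjusted p or in the other alternatives. Counting the lists without 1 library was added after seeing the data.

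The 9 genes and the pathway lists were chosen with earlier results of these data known, and some genes of these lists are not reported here. All 9 were described; of the other IRF, STAT, receptor, kinase and ligand genes any could be named, and of each other list up to 4 with the smallest adjusted p per comparison. Motifs were searched in RefSeq promoters of GRCh38.p14. Python 3.11.15, pandas 2.3.3, NumPy 2.4.6 and matplotlib 3.10.9 were used.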

Additional observations from a re-analysis of the deposited data

Results flagged for a closer look

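The following responses to PMA differed from that of shNC by the difference of differences in edgeR's quasi-likelihood test, and all values are differences of log2 fold changes. IRF7 had a larger response in shUHRF1 (1.36), shDNMT1 (3.41) and shDNMT3B (2.72). IRF9 had a larger response in shDNMT1 (1.36) and shDNMT3B (1.14), IRF1 in shDNMT1 (1.02) and IFNAR2 in shDNMT3B (1.15). Among other genes of the pathway, JAK2 (1.58) and IRF8 (1.64) differed in shDNMT1 and IFNGR2 (0.81) in shDNMT3B. For IRF8, which fell with PMA in every line, the positive value means a smaller fall. JAK1 had a smaller rise in shDNMT1 (-0.72) and shDNMT3B (-0.78). The differences of JAK1 in both lines and of IFNGR2 in shDNMT3B were not called without the shNC library that held hemoglobin counts. IFNB1 also had a larger response in shDNMT1 (adjusted p = 0.0211), for which no size is given because its DMSO libraries there lay below 3 counts. Groups of 2 libraries could not be tested for outlying samples.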

How the results depend on the processing

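Of 117 values of the 9 genes over 13 comparisons, 58 were called and 41 of these kept the call in every alternative, 32 of 34 among the PMA responses. None of the values carried through the alternatives reversed direction under any of them. The counts of genes called moved by over 1.5 times as follows, and the cause was not tested. For shUHRF1 against shNC in DMSO (3 called), no filter on low counts gave 1, only the groups compared 0, and the exact test after DEGES normalization 1, and leaving out each library gave 1 to 2. For shDNMT1 in DMSO (3), the replicate block and DESeq2 each gave 5, and for shDNMT3B in DMSO (3) the block gave 6. In PMA, the block gave 4 for shUHRF1 (0) and 5 for shDNMT1 (3), for which no filter and only the groups compared each gave 1 and leaving out each library 1 to 2, and for shDNMT3B (5) leaving out each library gave 0 to 4. For the differences of PMA responses, the block gave 6 for shUHRF1 (1), 5 for shDNMT1 (3) and 6 for shDNMT3B (3), only the groups compared gave 0 and DESeq2 2 for shUHRF1, and leaving out each library gave 0 to 1, 2 to 4 and 2 to 3. On the 9 genes the block changed no other call than those given with the results. Where leaving out a library left its partner alone, that partner was assumed to vary like the other groups. The median of all genes moved by over 0.1 on the log2 scale in these cases: by -0.280, -0.306, -0.260 and -0.239 in PMA against DMSO in shNC, shUHRF1, shDNMT1 and shDNMT3B and by 0.131 in shDNMT3B against shNC in PMA under upper-quartile scaling, and by -0.108 in PMA against DMSO in shNC under DEGES. The DEGES exact test gives no difference of responses and was not run for it. Depth limited IFNB1 and the other ligands most.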
